A study of Mus musculus with 8 samples.

Results

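Besides messenger RNAs and long noncoding RNAs, RNA sequencing of mouse cortex after a high fat diet gave values for 58 short structured noncoding RNAs, out of 13996 genes in the expression table. They are all rows of the table with 1 of 5 annotated classes: 28 were classed misc_RNA, 16 snRNA, 10 scaRNA, 3 ribozyme and 1 miRNA. Their annotated lengths ran from 107 to 423 bases with a median of 254, and 26 of the 58 were at most 200 bases long. Male C57BL/6 mice were given either a conventional diet (normal, 4 mice) or a diet containing 60% fat (HFD, 4 mice) for 8 weeks, and the cortex was taken at 16 weeks of age. Every library came from a different mouse, and all 8 were made from total RNA depleted of ribosomal RNA. Levels were FPKM, fragment counts scaled to the length of the transcript and to the depth of the library, given to the nearest 0.1, so the number of reads behind each value was unknown. All 58 RNAs passed the study's filter on low values (mean FPKM of at least 1 and no mouse at 0), as did 13982 genes in all. Diets were compared with limma on log2(FPKM + 0.1), two-sided, with Benjamini-Hochberg adjustment over those 13982 genes, and a gene was called at an adjusted p below 0.05. Every fold change below is HFD minus normal on that scale, with its standard error (SE).

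The RNA families that most of these members belong to or resemble work as the RNA cores of ribonucleoprotein machines rather than as messages. U1, U2, U4 and U6 snRNAs build the major spliceosome, U11, U12 and U6atac serve the minor spliceosome, and small Cajal body RNAs (scaRNAs) guide chemical modification of the snRNAs themselves. 7SK RNA holds the elongation kinase P-TEFb in an inactive complex, 7SL is the scaffold of the signal recognition particle, RNase P and RNase MRP are RNA-based nucleases that mature transfer and ribosomal RNA, Y RNA binds the Ro60 and La proteins, and vault RNA is part of the vault particle. Most are made in every cell, several by RNA polymerase III, and mammalian genomes carry many near-copies and pseudogenes of them. The reference annotation used here (GENCODE M21, GRCm38) lists 1383 snRNA, 562 misc_RNA and 2202 miRNA genes. By alignment to named RNAs, 14 of the 58 members resembled 7SK, 7 resembled 7SL, 5 U2, 3 U12, 2 U1 and 2 U6. The 7SK gene Rn7sk itself had no row in the expression table.

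The sequences of 3 spliceosomal members show what they share with the functional RNAs. All are given 5′ to 3′ as DNA from GENCODE M21 transcripts, GRCm38. Capitals mark, for the U1 member Gm22513 (chr12:54696782-54696945, + strand), the stretch that pairs with the 5′ splice site, for the U2 member Gm25939 (chr1:72255008-72255198, + strand) the stretch that pairs with the branch site, and for Gm25541 (chr2:27539805-27539930, - strand) the run AAGGAGAGA that is found in U6atac.
Gm22513: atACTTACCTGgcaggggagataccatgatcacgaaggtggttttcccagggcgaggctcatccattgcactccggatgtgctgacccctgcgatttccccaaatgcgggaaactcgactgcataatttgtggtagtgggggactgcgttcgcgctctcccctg
Gm25939: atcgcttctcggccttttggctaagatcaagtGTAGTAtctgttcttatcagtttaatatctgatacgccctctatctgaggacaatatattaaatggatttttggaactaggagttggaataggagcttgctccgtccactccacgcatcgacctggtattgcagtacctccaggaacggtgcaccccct
Gm25541: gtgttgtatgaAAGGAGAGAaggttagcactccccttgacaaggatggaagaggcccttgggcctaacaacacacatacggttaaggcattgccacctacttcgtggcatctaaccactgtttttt
Searched on the transcribed strand, ACTTACCTG occurred in 1 of the 58 members and in 3.98% of the annotated snRNA genes, and AAGGAGAGA in 1 member and 0.578% of annotated snRNAs. GTAGTA occurred in 7 members, including all 5 U2 members, and in 3.69% of annotated snRNAs. ACAGAGA occurred in 3 members, among them both U6 members, and in 42.2% of annotated snRNAs. These matches describe the letters only.

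The pair Gm24265 and Gm24407 aligned to none of the named RNAs used for alignment, which included no U4 RNA. Both carried TTGCGCAG, the complement of the CTGCGCAA run in the U6 members. The run was picked as the longest complement of the U6 member Gm23217 shared by both RNAs, so its presence in both followed from the search. Pairing with U6 is a feature of U4, and TTGCGCAG occurred in 0.795% of annotated snRNAs and in no other member. The name U4 rests on this run and was not tested. The genes lie on the + strand of chromosome 5, their starts 795 bases apart (chr5:115489459-115489599 and chr5:115490254-115490394). The sequences are shown because they differ at only 2 of 141 bases, written in capitals, G88A and C99A, counted from 1 at the 5′ end with the Gm24265 base first.
Gm24265: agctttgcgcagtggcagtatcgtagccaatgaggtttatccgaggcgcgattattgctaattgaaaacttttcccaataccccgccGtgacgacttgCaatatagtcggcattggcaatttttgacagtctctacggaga
Gm24407: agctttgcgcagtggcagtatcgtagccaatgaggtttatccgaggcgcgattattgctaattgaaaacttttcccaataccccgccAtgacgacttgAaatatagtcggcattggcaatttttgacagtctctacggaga
Reads that miss these bases cannot be assigned to either copy, so the split of FPKM between them is uncertain. The same holds in full for the U6 members Gm23217 and Gm24967, identical over 107 bases to each other and in sequence shared by 43 annotated genes, and for Rn7s1 and Rn7s2, identical over 300 bases.

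The members spanned a range of mean FPKM from 1.34 to 50208 and held the top of the expression table. The RNase P RNA Rpph1 ranked 1 of all genes, the Y RNA Rny1 ranked 2, the RNase MRP RNA Rmrp 3 and the U1 member Gm22513 4. Together the 58 RNAs took between 27.1% and 32.1% of the summed FPKM of a mouse. Copies of a family differed widely in level on this length-scaled measure: the U2 members spanned 610-fold, from Gm25939 at a mean of 3126 FPKM to Gm25813 at 5.13, and the 7SK-like members 70.7-fold, from Gm24447 at 99.8 to Gm25363 at 1.41. Identity to the U2 gene Rnu2-10 did not follow that order, at 98.4% for Gm25939, 99.0% for Gm25813 and 97.9% for Gm25360, whose mean was 237.8 FPKM. Gm25813 and Gm25360 each differed from Gm25939 at 3 of 191 bases. Reads that miss such bases cannot be assigned to 1 copy, so the split of FPKM among the U2 members is uncertain.

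**Figure D1:**
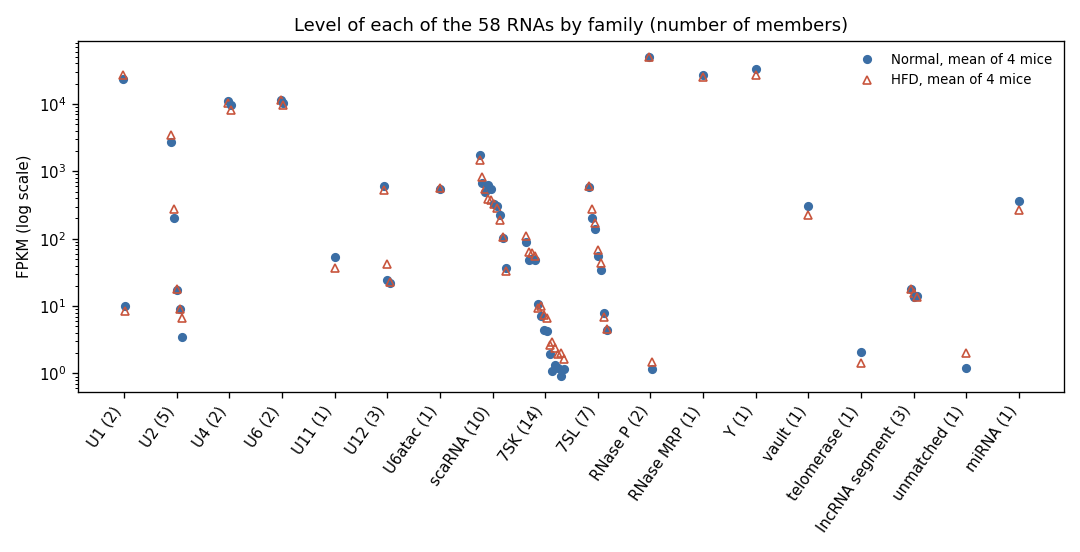
Mean FPKM (vertical axis, log scale) of each of the 58 RNAs in 4 normal mice (filled circles) and 4 HFD mice (open triangles), arranged by family with the number of members in brackets. Levels run from about 1 FPKM among the 7SK-like copies to the RNase P RNA Rpph1 at a mean of 50208.

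Across the 58 RNAs, 4 were called, 3 higher and 1 lower in HFD, or 6.90% of the members. Of all genes tested, 33.1% were called, 17.7% higher and 15.3% lower. An unadjusted p below 0.05 was reached by 13 of 58 members (22.4%) and by 44.3% of all genes, and the FPKM of the diets did not overlap for 3 members against 31.9% of all genes. The members varied more between mice of the same diet: the median within-diet SD on the log2 scale was 0.46 for the members and 0.12 for all genes. Their median log2 fold change was 0.13, with 36 positive and 22 negative, while the median of all genes was 0.003. Of the classes, misc_RNA had 3 calls among 28, scaRNA 1 among 10, and the 16 snRNAs, 3 ribozymes and 1 miRNA had none by limma, although 2 snRNAs reached an unadjusted p below 0.05.

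**Figure D2:**
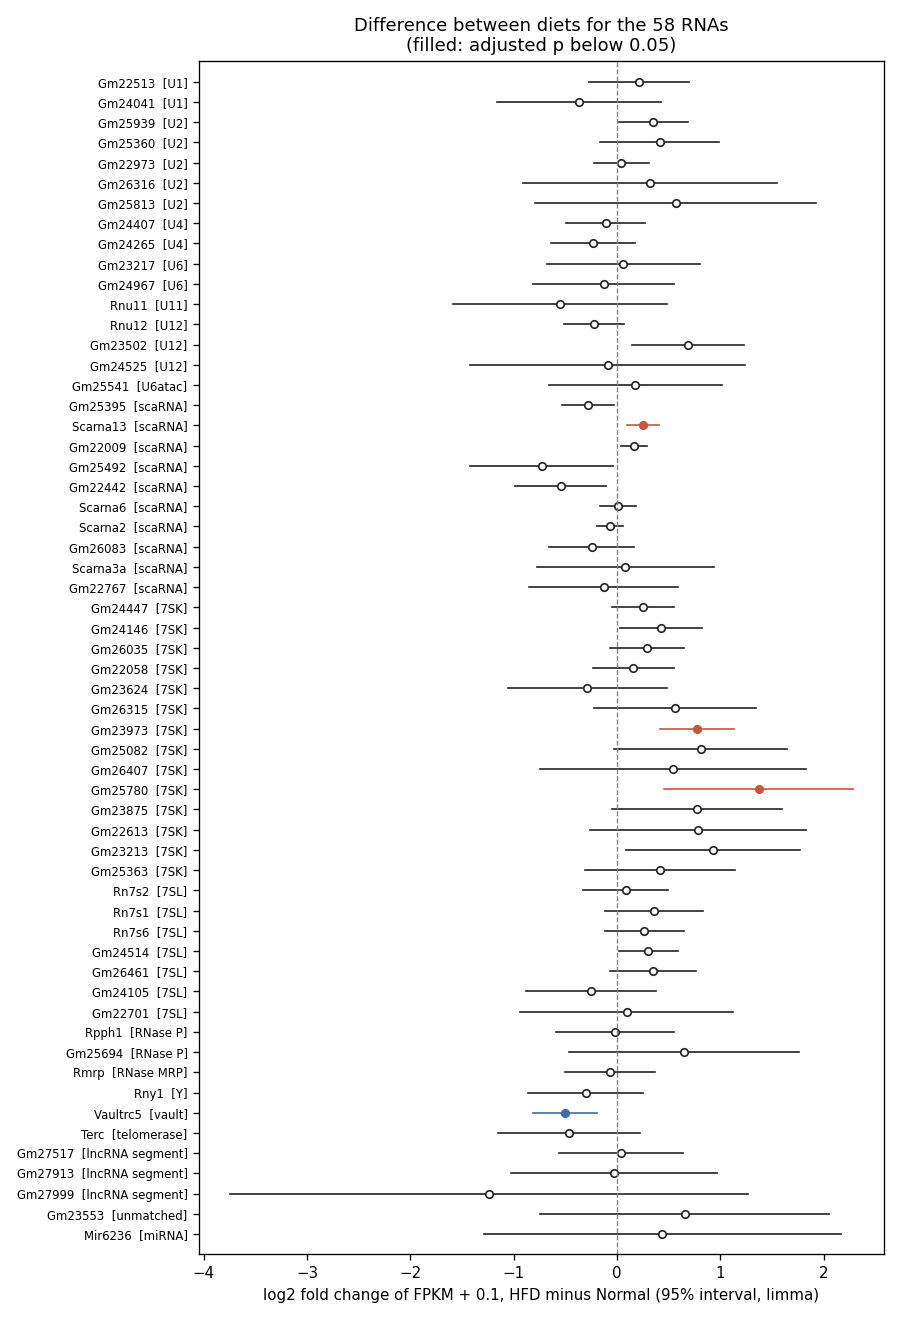
Log2 fold change (HFD minus normal, horizontal axis) of log2(FPKM + 0.1) for each of the 58 RNAs with its 95% interval from limma, n = 4 mice per diet, ordered by family and then by level. Filled points are the 4 called RNAs, Scarna13, Gm23973 and Gm25780 to the right of 0 and Vaultrc5 to the left, and most other intervals cross 0.

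U1, which recognises the 5′ splice site, was represented almost entirely by Gm22513. Normal mice had 26681, 21966, 26719 and 18920 FPKM and HFD mice 32033, 24824, 28214 and 23853. The diets overlapped, with a log2 fold change of 0.21 (SE 0.22, 95% interval -0.27 to 0.70, adjusted p = 0.476). The other U1 member, Gm24041 in an intron of Tmem65, is 77.6% identical to the U1 gene Rnu1a1 over 147 aligned bases and stood at a mean of 9.29 FPKM. U2 members, chosen for description after their values were seen, all had positive log2 fold changes, from 0.04 to 0.57, and none was called by limma, with an unadjusted p below 0.05 in 1. Gm25939 carried most of the U2 signal, at 3390, 2441, 2513 and 2625 FPKM in normal mice and 4066, 2751, 3776 and 3445 in HFD mice. Normal 1 lay above HFD 2, and the log2 fold change was 0.35 (SE 0.15, adjusted p = 0.0961).

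The U4 pair and the U6 pair were not called. Gm24407 lay between 9433 and 12344 FPKM on the normal diet and between 8016 and 11845 on the HFD, with a log2 fold change of -0.11 (SE 0.17, adjusted p = 0.642). Its neighbour Gm24265 had a log2 fold change of -0.23 and an adjusted p of 0.356. For U6, the catalytic snRNA, Gm23217 stood at 11846, 17137, 12048 and 5393 FPKM in normal mice and 10951, 11357, 8590 and 14696 in HFD mice. Normal mice alone thus covered the whole HFD range, with a log2 fold change of 0.06 and a 95% interval of -0.68 to 0.80. Summed over both copies, U6 lay between 12030 and 30380 FPKM on the normal diet and between 15033 and 25384 on the HFD.

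Minor spliceosome RNAs, which serve a small class of introns, were also not called. Rnu12 (U12) was at 743.3, 544.0, 617.6 and 547.0 FPKM in normal mice and 603.4, 493.1, 430.9 and 575.3 in HFD mice, with a log2 fold change of -0.22 (SE 0.13, adjusted p = 0.209). Rnu11 (U11), at 41.4, 26.6, 99.5 and 45.5 FPKM against 24.0, 16.1, 57.9 and 48.1, had a log2 fold change of -0.55 (SE 0.46, adjusted p = 0.382). Normal 3 was above all other mice and HFD 2 below them. Gm25541 aligned to none of the named RNAs, which included no U6atac RNA, and is placed here only by its AAGGAGAGA run. Its values were 725.3, 628.5, 193.7 and 670.3 FPKM in normal mice and 468.7, 498.0, 595.1 and 698.9 in HFD mice. Normal 3 was below every other mouse (log2 fold change 0.18, SE 0.37, adjusted p = 0.738). The U12-like copy Gm23502, 96.5% identical to Rnu12 over 141 aligned bases and picked out after its values were seen, went the other way from Rnu12 with a log2 fold change of 0.69 (SE 0.24, adjusted p = 0.0534). Its normal values were 20.0 to 29.8 FPKM, and HFD 2, at 23.5, fell inside that range while the other HFD mice were at 38.1 to 58.6.

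The scaRNAs, which sit in Cajal bodies and direct pseudouridylation or methylation of snRNAs, held the called change with the smallest SE. Scarna13, an H/ACA guide RNA in an intron of the long noncoding gene Snhg10 (chr12:105031075-105031349, - strand), rose. It was at 722.1, 683.5, 669.0 and 649.4 FPKM in normal mice and 882.1, 741.3, 826.6 and 801.7 in HFD mice. Every HFD mouse was above every normal mouse, and the log2 fold change was 0.25 (SE 0.07, adjusted p = 0.0193). The call was lost without HFD 1 (adjusted p = 0.0526), and the change stayed under 40%. Its sequence is shown because it is the only called guide RNA. The ACA box, in capitals, lies 3 bases from the 3′ end.
Scarna13: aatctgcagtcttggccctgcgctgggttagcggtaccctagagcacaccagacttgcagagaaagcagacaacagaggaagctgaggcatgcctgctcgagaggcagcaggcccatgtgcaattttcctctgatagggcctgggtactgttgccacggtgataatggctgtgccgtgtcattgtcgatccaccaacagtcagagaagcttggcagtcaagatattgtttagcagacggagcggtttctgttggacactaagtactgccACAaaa

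Among the other 9 scaRNAs none was called, 3 had positive and 6 negative log2 fold changes, and 4 had an unadjusted p below 0.05. Gm22009, in an intron of Kpna4, was at 496.7, 470.1, 519.4 and 497.9 FPKM in normal mice and 525.1, 553.2, 552.4 and 592.1 in HFD mice. Its diets did not overlap and its adjusted p was 0.0516, with a log2 fold change of 0.16 (SE 0.06). The most abundant scaRNA, Gm25395 in an intron of the autophagy gene Atg16l1, stood at 1838, 1684, 1906 and 1649 FPKM in normal mice and 1631, 1327, 1228 and 1674 in HFD mice (log2 fold change -0.28, SE 0.11, adjusted p = 0.0813). Scarna6 lies in the same host gene, and had a log2 fold change of 0.01 with a 95% interval of -0.17 to 0.18. Scarna2, an intergenic guide of U2, was at 296.1 to 322.0 FPKM in normal mice and 269.9 to 312.1 in HFD mice, with a log2 fold change of -0.07 (SE 0.06, adjusted p = 0.355). Scarna3a was far less steady, at 177.2, 51.9, 114.5 and 70.5 FPKM against 78.7, 74.6, 89.9 and 175.1, and its log2 fold change of 0.08 had an SE of 0.38.

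The 7SK-like members held the remaining higher calls. Of 14, 2 (14.3%) were called higher and none lower, beside 17.7% and 15.3% of all genes tested. A positive log2 fold change was found in 13 and the median was 0.55, beside 50.6% and 0.003 over all genes. Their aligned stretches were 75.5% to 100.0% identical to Rn7sk, which is 331 bases long. The stretches ran from 71 aligned bases in Gm25363 to 246 in Gm22058, so none covered the whole of Rn7sk. Gm23973 (chr7:103271550-103271870, + strand, intergenic) was at 3.0, 5.3, 4.7 and 4.5 FPKM in normal mice and 7.0, 7.6, 6.6 and 8.6 in HFD mice. All HFD mice were above all normal mice, with a log2 fold change of 0.78 (SE 0.16, adjusted p = 0.00657), and the call held without any of the 8 mice. Gm25780 (chr6:140530963-140531215, + strand, intron of Plekha5) was at 0.6, 0.6, 1.3 and 1.9 FPKM in normal mice and 3.3, 1.4, 2.7 and 4.2 in HFD mice. HFD 2 fell below Normal 4, and the log2 fold change was 1.37 (SE 0.41, adjusted p = 0.0288). That call was lost in 5 of the 8 fits that left out a mouse, with adjusted p up to 0.0761.

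The stretch of Gm25780 that aligns to Rn7sk, base 1 to 168, is shown with the 19 bases that differ from Rn7sk in capitals. Gm23973 aligned from base 9 to 243 with 8 mismatches and 1 gap position.
Gm25780: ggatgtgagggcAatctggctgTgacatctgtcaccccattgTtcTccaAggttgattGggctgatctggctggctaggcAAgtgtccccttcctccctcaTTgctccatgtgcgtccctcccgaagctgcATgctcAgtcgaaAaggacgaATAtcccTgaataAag
Most of the 7SK-like signal came from other copies, with Gm24447, Gm24146, Gm26035 and Gm22058 at means of 99.8, 56.4, 55.1 and 51.2 FPKM, described here for their level and none called. The summed FPKM of the 14 members was 293.0, 237.2, 256.7 and 296.9 in normal mice and 326.7, 285.0, 415.6 and 313.4 in HFD mice. HFD 2 fell among the normal mice and the other HFD mice lay above them. Reads of 7SK that map to several copies could be placed on any of these rows, so a member's FPKM need not be the transcript of that locus. Ribosomal RNA left after depletion also differed: Rn18s-rs5 was at 8.8, 4.3, 5.9 and 11.4 FPKM in normal mice and 9.7, 14.9, 17.9 and 14.3 in HFD mice (log2 fold change 0.95, SE 0.29, adjusted p = 0.0298). The mitochondrial mt-Rnr1 was not called, with HFD 2 and HFD 3, at 7860 and 9513 FPKM, above the other mice at 4015 to 5396. Their part in the 7SK-like values was not tested.

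**Figure D3:**
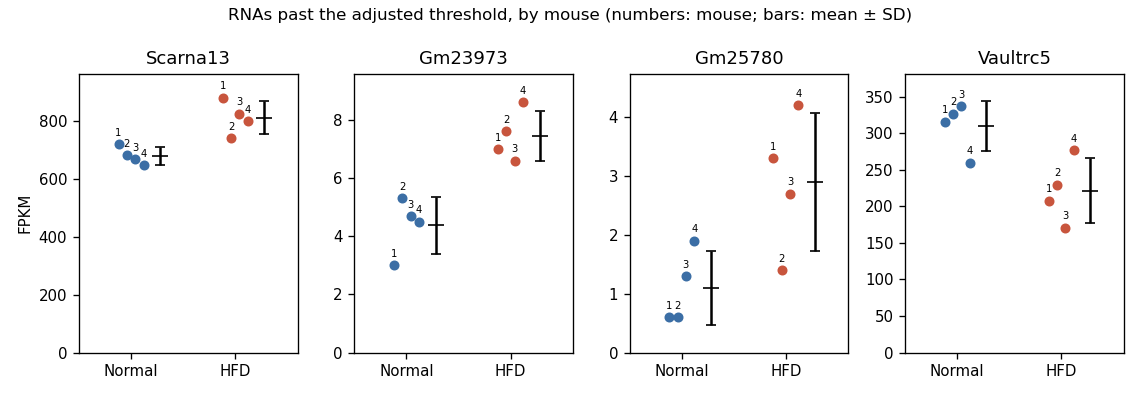
FPKM by mouse (numbered points) of the 4 called RNAs in normal and HFD mice, each panel with its own linear axis from 0, and bars giving the mean ± SD of 4 mice. In Scarna13 and Gm23973 the diets do not overlap, while in Gm25780 HFD 2 at 1.4 lies below Normal 4 at 1.9, and in Vaultrc5 HFD 4 at 277.2 lies above Normal 4 at 259.7.

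7SL, the RNA of the signal recognition particle, which brings secretory and membrane proteins to the endoplasmic reticulum, had no call among 7 members. Of these, 6 had a positive log2 fold change, the median was 0.27, and 1 had an unadjusted p below 0.05 in limma. Rn7s2 was at 685.4, 456.4, 483.4 and 700.6 FPKM in normal mice and 569.5, 465.1, 778.3 and 646.4 in HFD mice (log2 fold change 0.08, SE 0.18, adjusted p = 0.754). The sequence-identical Rn7s1 was at 254.1, 178.0, 182.5 and 209.0 FPKM in normal mice and 248.4, 169.5, 360.9 and 310.0 in HFD mice (log2 fold change 0.36, SE 0.21, adjusted p = 0.214). HFD 2 was the lowest of its diet in both, and without it Rn7s1 had a log2 fold change of 0.57 and an adjusted p of 0.0299, while Rn7s2 had 0.21 and 0.414. 

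The Y RNA and the RNAs of RNase P and RNase MRP were not called. Rny1, the Y RNA, was at 39829, 29186, 31092 and 30508 FPKM in normal mice and 30917, 18686, 27013 and 30536 in HFD mice. HFD 2 was far below the rest, and the log2 fold change was -0.30 (SE 0.25, 95% interval -0.86 to 0.25, adjusted p = 0.37). Its sequence ends in the run of T, here in capitals, that stops RNA polymerase III (chr6:47788069-47788180, - strand).
Rny1: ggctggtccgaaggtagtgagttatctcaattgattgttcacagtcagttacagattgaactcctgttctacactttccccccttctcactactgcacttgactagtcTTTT
The RNase P RNA Rpph1, which forms the catalytic core that trims the 5′ leader of transfer RNA, was at 45024, 55607, 53615 and 48030 FPKM in normal mice and 54455, 44296, 49313 and 51327 in HFD mice. Its log2 fold change was -0.02 with a 95% interval of -0.60 to 0.56. Rmrp, the RNA of RNase MRP, was at 25858 to 26871 FPKM in normal mice and 22468 to 28677 in HFD mice, with a log2 fold change of -0.07 (SE 0.19, adjusted p = 0.815). These SEs depend on limma's trend of variance with level. Without that trend the SE was 0.09 in place of 0.26 for Rpph1 and 0.08 for Rmrp, and neither was called. The second RNase P-like row, Gm25694 in an intron of Syne1, was at 0.4 to 2.8 FPKM in all mice.

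Vault RNA was the only member called lower. Vaultrc5, an intergenic gene, was at 315.9, 327.0, 337.6 and 259.7 FPKM in normal mice (310.1 ± 34.7, SD, n = 4) and 208.0, 229.6, 171.1 and 277.2 in HFD mice (221.5 ± 44.3, SD, n = 4). HFD 4 overlapped with Normal 4, and the other HFD mice were below all normal mice. The log2 fold change was -0.50 (SE 0.14, adjusted p = 0.0219), and the call was lost without Normal 2, Normal 3 or HFD 1, with adjusted p of 0.0571, 0.0542 and 0.0563. The major vault protein gene Mvp, which makes the shell of the particle, had a mean of 3.13 FPKM in normal mice and 2.95 in HFD mice and was not called (adjusted p = 0.813). The telomerase RNA Terc, template of telomere synthesis, was low, at 1.2, 3.0, 2.5 and 1.5 FPKM in normal mice and 2.2, 1.3, 1.1 and 1.1 in HFD mice, and was not called (log2 fold change -0.46, adjusted p = 0.271).

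The remaining members were pieces of long noncoding RNAs, 1 unmatched RNA and 1 miRNA. Gm27517 lies in an exon of Tug1, Gm27913 in Pvt1 and Gm27999 in Rmst, so their reads cannot be separated from those of the host. None of these was called (adjusted p from 0.418 to 0.969), and Gm27999 was the least steady member of all, from 0.3 FPKM in HFD 3 to 34.9 in HFD 4. Gm23553, in an intron of Larp4b, had means of 1.2 FPKM in normal mice and 2.0 in HFD mice. The miRNA gene Mir6236 was at 108.1, 70.5, 1168.1 and 116.7 FPKM in normal mice and 251.8, 375.0, 298.5 and 124.7 in HFD mice. Normal 3 was above every other mouse, the other normal mice were below every HFD mouse, and the log2 fold change was 0.44 (SE 0.77, adjusted p = 0.686). Without Normal 3 it was 1.34, with an adjusted p of 0.0217. The mature sequence, from the RefSeq table (GRCm38.p6, chr9:110281353-110281371, + strand), has its seed, bases 2 to 8, in capitals. These libraries read the 123-base gene and not the mature miRNA.
mmu-miR-6236: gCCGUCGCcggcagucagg

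Of the 58 members, 27 lay within another gene on the same strand, and 25 had that host gene in the table, over 24 different host genes. Of those host genes 9 were called, 6 higher and 3 lower, beside 33.1% of all genes, and member and host had the same sign in 8 of the 25 pairs. The called 7SK-like member Gm25780 went against its host: Plekha5, at 29.8, 38.3, 40.8 and 30.9 FPKM in normal mice and 26.8, 25.1, 25.8 and 23.5 in HFD mice, fell by 0.45 on the log2 scale (SE 0.10, adjusted p = 0.00865). Snhg10, the host of Scarna13, was at 2.2 to 2.9 FPKM in normal mice and 2.3 to 3.5 in HFD mice, far below the guide RNA in its intron, and was not called (log2 fold change 0.07, adjusted p = 0.746). Cop1, the host of Scarna3a, fell by 0.22 on the log2 scale (adjusted p = 0.00813) while Scarna3a had a value of 0.08. Atg16l1, host of Gm25395 and Scarna6, had a log2 fold change of 0.14 (adjusted p = 0.0709), and Kpna4, host of Gm22009, -0.12 (adjusted p = 0.124).

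A second row named Rmrp, a long noncoding RNA whose exon contains the whole RNase MRP gene, did not follow the ribozyme row. It was at 2948, 1785, 1747 and 3141 FPKM in normal mice and 3860, 2972, 4793 and 3589 in HFD mice, and it rose with a log2 fold change of 0.69 (SE 0.22, adjusted p = 0.0397). HFD 2 fell below Normal 4, so the diets overlapped. Reads of the overlap can be given to either row, and how the authors' counting divided them was not given in the sources used here.

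**Figure D4:**
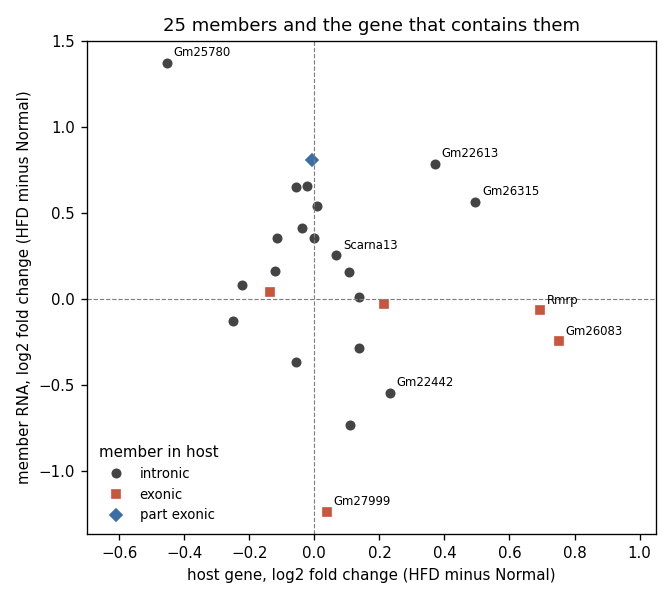
Log2 fold change (HFD minus normal) of 25 member RNAs (vertical axis) against that of the gene that contains them on the same strand (horizontal axis), each from 4 mice per diet, with circles for intronic, squares for exonic and a diamond for partly exonic members. Members and hosts share a sign in 8 of the 25 pairs, and Gm25780 stands at 1.37 with its host Plekha5 at -0.45.

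Protein genes that make, bind or process these RNAs were measured through 9 lists, which hold 151 genes of which 142 were tested. Of these, 32 (22.5%) were called, 12 higher and 20 lower, again beside 33.1% of all genes. The snRNP core list, the Sm, Lsm and other proteins that coat spliceosomal snRNAs, had 9 of 32 called, 1 higher and 8 lower, with a median log2 fold change of -0.08. The Sm protein gene Snrpd1 was at 39.2, 40.9, 40.8 and 38.7 FPKM in normal mice and 26.6, 28.9, 23.3 and 26.0 in HFD mice, and fell by 0.61 on the log2 scale (SE 0.06, adjusted p = 0.000589). The U1 protein gene Snrpc was at 23.1 to 27.2 FPKM in normal mice and 13.1 to 18.8 in HFD mice, and fell by 0.64 (SE 0.11, adjusted p = 0.00277). The U1 RNA Gm22513, with which that protein assembles, had a log2 fold change of 0.21 and was not called.

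The list for snRNA synthesis and assembly had 6 of 30 called, 4 higher and 2 lower. Snapc4, a subunit of the complex that starts snRNA transcription, rose with a log2 fold change of 0.45 (adjusted p = 0.00112), and Ints1, of the Integrator complex that cleaves snRNA 3′ ends, rose with 0.38 (adjusted p = 0.00133). Of the 10 genes around 7SK and P-TEFb, 2 were called higher and 1 lower. The cyclin gene Ccnt2 rose with a log2 fold change of 0.19 (adjusted p = 0.0249). The gene called lower was Larp7, which protects the 3′ end of 7SK and is named here for its direction, and it fell by 0.21 on the log2 scale (adjusted p = 0.0288). The inhibitor Hexim1 had a value of -0.14 and an adjusted p of 0.118.

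The shares called in the lists that follow, from 13.0% to 33.3%, stand beside 33.1% of all genes called and 15.3% called lower. Of the genes for signal recognition particle proteins, 2 of 9 were called, both lower: Srp19 fell by 0.33 on the log2 scale (adjusted p = 0.00123) and Srp72 by 0.16 (adjusted p = 0.0191). For RNase P and MRP proteins 2 of 11 were called, both lower, with Rpp30 at -0.28 and Rpp14 at -0.24 (adjusted p = 0.034 and 0.0353). For proteins of scaRNA particles 2 of 11 were called, both lower, with Nop58 at -0.32 and Nop10 at -0.25 (adjusted p = 0.00313 and 0.0165). Of the 3 vault, Y and La genes tested only Ssb was called. Ssb, which encodes the La protein that binds the ends of RNA polymerase III transcripts, was at 60.9, 65.3, 60.5 and 61.4 FPKM in normal mice and 46.1, 44.9, 42.4 and 44.8 in HFD mice, and fell by 0.48 on the log2 scale (SE 0.04, adjusted p = 0.000326). Trove2, which encodes the Y RNA partner Ro60, had a value of -0.15 and an adjusted p of 0.0932.

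The RNA polymerase III list had 3 of 23 called, 2 higher and 1 lower. Brf2, the initiation factor for genes of the 7SK and U6 type, was at 5.3 to 6.4 FPKM in normal mice and 7.1 to 8.5 in HFD mice (log2 fold change 0.37, SE 0.08, adjusted p = 0.0096), and Gtf3c1 of transcription factor IIIC had a log2 fold change of 0.17 (adjusted p = 0.00965). Of 13 miRNA processing genes 3 were called higher and 1 lower. Ago2, the slicing Argonaute, was at 6.5 to 7.1 FPKM in normal mice and 9.1 to 9.9 in HFD mice and rose with 0.49 (adjusted p = 0.000828), and its partner gene Tnrc6b rose with 0.33 (adjusted p = 0.00404).

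The members shared a pattern by mouse that the diet does not describe. HFD 2 was the lowest of its diet for 34 of the 58 members, while it was the lowest for 23.1% of all genes, and Normal 2 was the lowest of its diet for 32 members, against 24.2% of all genes. The median deviation of the members from the mean of their own diet was -0.33 on the log2 scale in HFD 2 and -0.14 in Normal 2, and 0.16 in Normal 1. HFD 2 also had the smallest share of summed FPKM in the members, 27.1%. Without HFD 2, 8 members were called, among them all 4 of the calls made with every mouse. Leaving out Normal 4 gave 7 calls and leaving out HFD 1 gave 2.

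**Figure D5:**
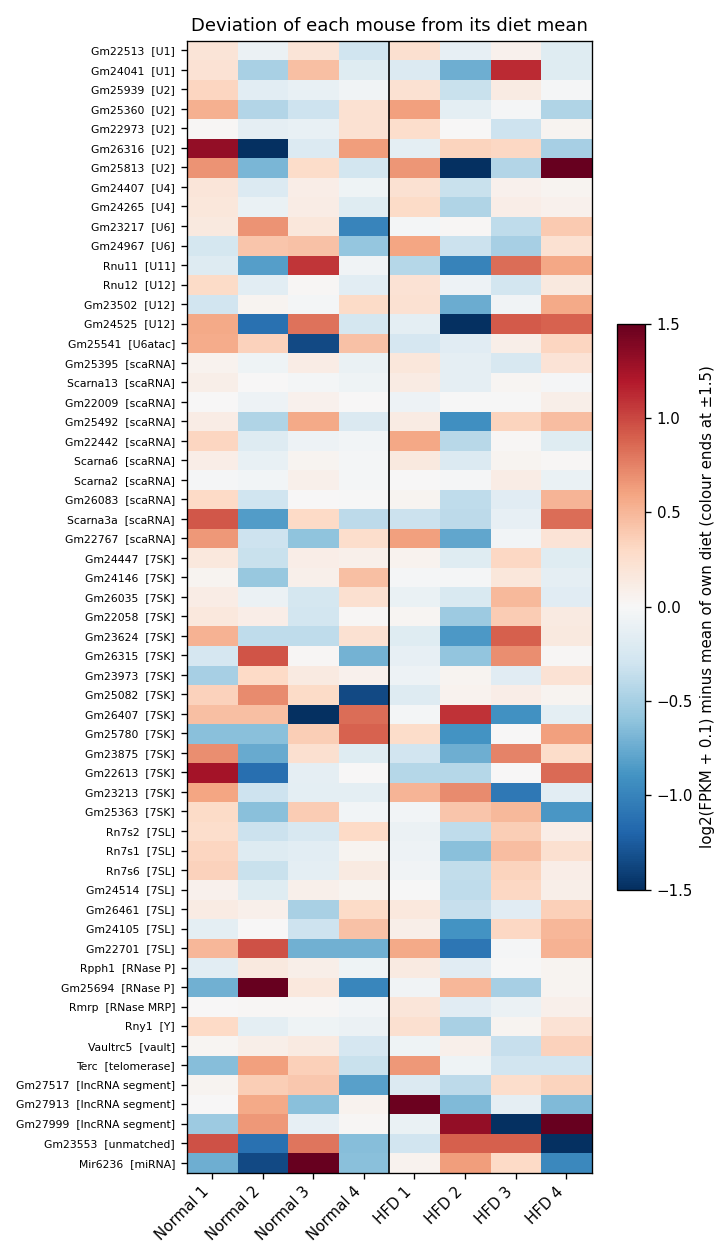
Deviation of log2(FPKM + 0.1) from the mean of the mouse's own diet (colour, ending at ±1.5) for the 58 RNAs (rows, by family) in the 8 mice (columns). The HFD 2 column is mostly blue, with a median deviation of -0.33, and Normal 2 is the next lowest with -0.14.

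The dissected cortexes also differed in their content of other regions and cell types. Summed FPKM of cerebellar marker genes was 60.8 to 449.0 in normal mice and 41.6 to 49.3 in HFD mice, with 5 of 8 tested markers called lower. Of the listed cerebellar markers, Gabra6 was at 0 in a mouse, and Pcp2, Barhl2 and Eomes were not in the table. Striatal markers summed to 264.3 to 469.2 and 102.1 to 116.2 FPKM (9 of 10 lower), oligodendrocyte markers to 2202 to 3614 and 1516 to 2097 (8 of 8 lower), and cortical markers to 571.2 to 851.8 and 820.2 to 1117 (7 of 12 higher). Microglial markers stood at 105.4 to 128.3 and 110.7 to 121.9 FPKM. Thalamic markers summed to 42.4 to 122.7 FPKM in normal mice and 38.8 to 43.0 in HFD mice (3 of 7 lower). Astrocyte markers summed to 789.7 to 1005 and 751.0 to 834.0 (2 of 6 lower). For choroid and blood markers the sums were 579.6 to 1083 and 225.1 to 1183 (6 of 9 lower). With the mean level of the cerebellar markers as a covariate, Gm23973 was called (log2 fold change 1.37, adjusted p = 0.0105), as were 3.63% of all genes. Gm25780 was not called with it at a log2 fold change of 1.66 and a wider SE of 0.73 (adjusted p = 0.211), nor were Scarna13 at 0.18 (SE 0.12, adjusted p = 0.406) and Vaultrc5 at -0.34 (SE 0.24, adjusted p = 0.443). The summed levels of the cerebellar, striatal and oligodendrocyte markers do not overlap between the diets, while those of the cortical and microglial markers do. By mean log2 level the cortical markers do not overlap either, at 4.27 to 4.85 in normal mice and 4.96 to 5.28 in HFD mice. The same holds for the astrocyte markers, at 6.30 to 6.61 in normal mice and 6.08 to 6.27 in HFD mice, although their sums overlap. For the cerebellar, striatal, oligodendrocyte, cortical and astrocyte content, diet and dissection therefore cannot be told apart. In whole tissue, fewer cells of a type and less RNA per cell cannot be told apart either.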

How the data were processed

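Cortex RNA of 8 mice was depleted of ribosomal RNA (Ribo-Zero Gold), made into stranded libraries and sequenced from both ends. After trimming (Trimmomatic) and alignment by STAR to the mm10 genome, the authors computed the deposited FPKM values with Cuffnorm and GENCODE M17. Versions, strand setting and handling of reads with several matches were not given in the sources used here. FPKM holds no depth, and for RNAs about as short as the sequenced fragments it depends strongly on the length correction. Sums of FPKM per mouse ran from 562431 to 639142.

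Members were rows of class misc_RNA, snRNA, scaRNA, ribozyme or miRNA, and groups followed the diet labels. The 13982 genes averaging 1 FPKM or more, with no mouse at 0, were fitted with limma 3.58.1 (R 4.3.3, variance trend) on log2(FPKM + 0.1), after testing on simulated data. Positions, hosts and sequences came from GENCODE M21, a later release than the authors used, and families from blastn 2.17.0 (e-value at most 1e-10). The lists and members were chosen with earlier results of these data known. Named members were the called ones, the 3 of highest mean FPKM per class, named RNAs (Rn7s, Rmrp, Rpph1, Terc, Vaultrc5, Rny, Rnu and Scarna symbols) and the miRNA. Named partner genes were the 2 of smallest adjusted p per list with a call, and hosts were those of named members. A few items that this rule would name are not reported here. Any other gene named was chosen after its values were seen. Alternatives were 2 other added constants, 2 filters, 2 scalings, 2 variance models, a minimum change of 40%, a replicate block, a cerebellar marker covariate and leaving out each mouse.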

Additional observations from a re-analysis of the deposited data

Results flagged for a closer look

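In 116 groups of 4 mice (58 RNAs in 2 diets), 6 held a mouse whose gap to the nearest of the others exceeded Dixon's 95% limit as a share of the group's range, and chance gives about 1 in 20 such groups. Mir6236 was at 1168.1 FPKM in Normal 3 and at 70.5 to 116.7 in the other normal mice. The 7SK-like Gm23213 was at 1.4 FPKM in Normal 1 against 0.7 to 0.8, and Gm26035 at 83.9 in HFD 3 against 51.1 to 55.9. The 7SL-like Gm24514 was at 48.6 FPKM in Normal 2 against 56.7 to 58.1. The Pvt1 piece Gm27913 was at 35.4 FPKM in HFD 1 against 8.0 to 11.6, and Scarna3a at 175.1 in HFD 4 against 74.6 to 89.9. The 6 values came from 6 different mice.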

How the results depend on the processing

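The count of 4 called members was 4 to 6 with the other added constants, filters, scalings and variance models, and 3 with a minimum change of 40%. With a filter at a mean FPKM of at least 5 the count was also 4, but Gm25780 was not tested and Gm22009 was called. The count was 1 with the cerebellar marker covariate and 2 to 8 when each mouse was left out (2 without HFD 1, 7 without Normal 4, 8 without HFD 2). The 32 called partner genes became 5 with the covariate and 4 with the minimum change, and 23 to 32 without each mouse. The 9 called host genes became 1, 3 and 6 to 8. The covariate overlaps with diet. Over the 22 named members and all settings, a call was gained 8 times and lost 14 times, and the cause was not tested. Values changed sign only in members that were not called: with the covariate, Rn7s1 (-0.056), Rn7s2 (-0.43), Terc (0.46), Rpph1 (0.21), Scarna3a (-0.65) and Scarna6 (-0.096), and without single mice, Mir6236 (-0.010 to 1.34), Rn7s2 (-0.039 to 0.21), Rpph1 (-0.074 to 0.036), Scarna3a (-0.20 to 0.39), Scarna6 (-0.039 to 0.078), Gm23217 (-0.27 to 0.29) and Gm24407 (-0.19 to 0.0011).

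With the replicate number as a block, 8 members were called, 3 of them also called without it. Vaultrc5 was not among them (adjusted p = 0.0634). Over all tested genes, mice of the same number in the 2 diets did not deviate together (correlations from -0.109 to -0.028). The median deviation of the members was 0.16 in Normal 1 and 0.04 in HFD 1, and -0.14 in Normal 2 and -0.33 in HFD 2. It was 0.05 in Normal 3 and 0.04 in HFD 3, but -0.04 in Normal 4 and 0.09 in HFD 4. Whether the numbers pair the mice for these RNAs was not tested. The depth behind each FPKM is unknown.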
